A study of Homo sapiens with 6 samples.

Results

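The genes described here build, anchor, modify and degrade the basement membrane and the collagen-rich matrix around it. They were chosen by symbol alone from the deposited gene table of a study of Caco-2 cells. Every collagen chain gene, laminin chain, matrix metalloproteinase (MMP), tissue inhibitor of metalloproteinases (TIMP), procollagen lysyl hydroxylase (PLOD) and lysyl oxidase-like gene listed there was taken, together with LOX, FN1, NID1, NID2, HSPG2, AGRN, SPARC, BGN, DAG1 and TGFBI. The rule gave 92 members of the 16781 genes listed, of which 55 had enough counts to be tested and 37 did not. Caco-2 is an established epithelial line from a human colon adenocarcinoma. RNA was sequenced from 3 libraries of Caco-2 cells made CBS KO with CRISPR/Cas9 and from 3 libraries of WT Caco-2 cells, all grown in the same serum-containing medium. The CBS KO cells had received a lentivirus with Cas9, a guide against CBS (cystathionine beta-synthase, which makes cystathionine and hydrogen sulfide) and a puromycin resistance gene, and the cells that survived puromycin were collected, with no isolation of single clones stated. No library of cells with the virus but without the guide was analysed here, so loss of CBS, infection and selection cannot be told apart. The labels name no other cell type and no matrix substrate in the cultures.

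A basement membrane is a thin sheet of matrix under an epithelium. Laminins, each built from an alpha, a beta and a gamma chain, polymerise on the cell surface through integrins and dystroglycan, and a second network of type IV collagen, built from 3 alpha chains wound together, is tied to them by nidogen, perlecan and agrin. In the intestine the alpha chain of the laminin changes along the crypt and villus, and the anchoring laminin, which holds chains from LAMA3 and LAMB3, joins the cell to the membrane at hemidesmosome-like contacts. Collagen chains are hydroxylated and folded in the endoplasmic reticulum, crosslinked outside the cell by lysyl oxidases, and cleaved by MMPs, which TIMPs inhibit.

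Regulatory sequence is shown for some of the genes with large contrasts below. It covers the lysyl oxidase LOX and the lysyl hydroxylase PLOD2, which had the largest rises among the collagen-modifying enzymes, and the start regions shared by the paired type IV collagen genes. LAMA1, the tested member with the largest fall, had no upstream window, so no sequence is printed for it. The sequences are from RefSeq (GRCh38.p14). For LOX (chr5:122078260-122078509, minus strand, the first of 3 start windows listed) and PLOD2 (chr3:146161185-146161434, minus strand) the 250 bases before the annotated start are printed in the direction of the gene, with capitals for ACGTG or its reverse complement CACGT, the core letters of hypoxia response elements.
LOX: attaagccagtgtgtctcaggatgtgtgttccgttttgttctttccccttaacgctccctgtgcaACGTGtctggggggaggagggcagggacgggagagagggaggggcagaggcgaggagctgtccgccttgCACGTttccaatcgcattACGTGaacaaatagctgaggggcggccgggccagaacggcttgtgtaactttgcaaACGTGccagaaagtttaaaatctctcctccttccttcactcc
PLOD2: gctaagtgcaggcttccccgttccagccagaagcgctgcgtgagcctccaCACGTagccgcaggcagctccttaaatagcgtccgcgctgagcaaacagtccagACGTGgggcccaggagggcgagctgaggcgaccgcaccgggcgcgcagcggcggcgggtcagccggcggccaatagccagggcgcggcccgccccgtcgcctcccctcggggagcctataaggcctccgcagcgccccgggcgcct
COL4A1 and COL4A2 lie head to head on chromosome 13, and their annotated starts are separated by 126 bases (chr13:110307158-110307283), all of which are printed on the plus strand, the direction of COL4A2, with capitals for GGGCGG and CCAAT. COL4A6 and COL4A5 are arranged in the same way on chromosome X with 379 bases between their starts, of which the 250 next to COL4A5 (chrX:108439588-108439837) are printed on the plus strand, with capitals for CCAAT or its reverse complement ATTGG.
Between COL4A1 and COL4A2: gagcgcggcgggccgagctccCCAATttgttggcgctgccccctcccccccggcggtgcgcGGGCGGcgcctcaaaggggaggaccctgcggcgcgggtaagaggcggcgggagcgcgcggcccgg
COL4A5: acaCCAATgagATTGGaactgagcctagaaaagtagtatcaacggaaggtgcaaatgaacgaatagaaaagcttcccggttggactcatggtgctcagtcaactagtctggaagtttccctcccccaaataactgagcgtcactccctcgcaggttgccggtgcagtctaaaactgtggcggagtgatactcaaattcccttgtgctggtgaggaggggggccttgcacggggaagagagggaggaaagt
The region between COL4A1 and COL4A2 is 80.2% G or C, and the printed region before COL4A5 is 51.2% G or C. Upstream windows of 250 bases were found for 43 of the 55 tested members. The same windows of 27305 genes gave the background, which, unlike the 43 members, was not limited to genes with enough counts to be tested. The LOX window holds 4 copies of ACGTG or CACGT and the PLOD2 window holds 2. At least 1 copy was present in 6 of the 43 members (COL12A1, COL5A1, LOX, MMP14, PLOD2 and TIMP1, 14.0%) and in 18.7% of all genes. CCAAT or ATTGG was present in 15 of the 43 members (34.9%) and in 33.0% of all genes. GGGCGG or CCGCCC was present in 34 of the 43 members (79.1%) and in 42.3% of all genes. TGANTCA, the AP-1 motif, was present in the window of LAMA3 alone among the 43 and in 6.60% of all genes. Both strands were searched for each motif, and a match describes letters in the window, not a bound site.

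The estimated counts summed to between 12805168 and 14307279 in the CBS KO libraries and to between 16097688 and 16176756 in the WT libraries. The members took 0.880 to 0.949% of them in CBS KO and 0.997 to 1.07% in WT. Levels are CPM, the counts of a gene relative to the total of its library, after scaling with TMM factors (the trimmed mean of M values). A member was called at an adjusted p under 0.05 from edgeR's quasi-likelihood test with Benjamini-Hochberg adjustment over the 13028 genes tested. CBS itself had 24.6, 18.5 and 25.4 CPM in CBS KO, against 48.8, 53.0 and 50.6 CPM in WT (log2 fold change -1.15, SE 0.10, edgeR adjusted p = 1.18e-08). Nothing in the labels says that a group's libraries were grown separately, and the p-values then reflect only the spread among these 6 libraries, which may be technical. Markers of intestinal epithelium summed to 7970 to 8600 CPM in CBS KO and 6820 to 7260 CPM in WT over 12 of 12 listed markers, of which KRT8 gave the most (2887 CPM in CBS KO and 2039 CPM in WT). Of the 11 tested, 7 were called higher and 3 lower. The intestinal transcription factors CDX2 (76.8 CPM in CBS KO and 294 CPM in WT, log2 fold change -1.94, edgeR adjusted p = 2.87e-14) and HNF4A (326 CPM in CBS KO and 772 CPM in WT, log2 fold change -1.24, edgeR adjusted p = 4.48e-11) fell, as did VIL1 (766 CPM in CBS KO and 959 CPM in WT, log2 fold change -0.33), while the adhesion proteins EPCAM (1122 CPM in CBS KO and 528 CPM in WT, log2 fold change 1.09) and CDH17 (983 CPM in CBS KO and 614 CPM in WT, log2 fold change 0.68) were called higher. With library totals 3 of the 11 were called higher and 4 lower, against 2966 and 7403 of all 13028 genes. Of the fibroblast list 6 of 12 were matched to the table, and they summed to 494 to 555 CPM in CBS KO and 428 to 445 CPM in WT, nearly all from FBLN1 (496 CPM in CBS KO and 386 CPM in WT). THY1 averaged under 0.1 CPM in each group and was not tested. Of the 5 tested, 3 were called higher with TMM: FBLN1, LUM (3.64 CPM in CBS KO and 1.48 CPM in WT) and S100A4 (6.67 CPM in CBS KO and 4.145 CPM in WT). The other 2 were called lower: PDGFRA averaged 7.12 CPM in CBS KO and 24.7 CPM in WT, and PDGFRB averaged 4.86 CPM in CBS KO and 19.6 CPM in WT. With library totals 1 was called higher and 2 lower, against 2966 and 7403 of all 13028 genes. Smooth muscle and pericyte markers (8 of 8) summed to 77.2 to 81.6 CPM in CBS KO and 85.1 to 97.0 CPM in WT. With TMM, 3 of the 6 tested were called higher (DES, RGS5 and TAGLN) and 1 lower (MYLK). Endothelial markers (5 of 8) summed to 23.3 to 24.0 CPM in CBS KO and 29.1 to 33.5 CPM in WT. Leukocyte markers (7 of 8) summed to 99.2 to 116 CPM in CBS KO and 42.7 to 50.6 CPM in WT, mostly CD68 (91.8 CPM in CBS KO and 32.9 CPM in WT), which the lysosomes of many cells carry. Of the 4 tested, 2 were called higher (CD68 and LYZ) and 1 lower (CD14, 4.24 CPM in CBS KO and 9.19 CPM in WT). The part of these markers in the results below was not tested. In RNA from whole cultures, fewer cells of a type and less RNA per cell cannot be told apart.

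Of the 55 members tested, 41 were called (74.5%, against 77.2% of all genes tested), 27 higher in CBS KO (49.1%, against 38.4% of all genes) and 14 lower (25.5%, against 38.9%). Changes of at least 2-fold were called in 14 members that rose (25.5%, against 12% of all genes) and in 8 that fell (14.5%, against 11.5%). The share called in either direction was close to the background, and the share that rose at least 2-fold was above it. The list was not tested as a set, and the description below is of single members. The median log2 fold change of the 55 was 0.107, against -0.011 over all genes tested. It was 0.259, 0.208 and 0.156 without WT replicate 1, 2 or 3, and 0.098, 0.228 and 0.139 without CBS KO replicate 1, 2 or 3. The filter was applied anew in each of these fits, so 55 or 56 members were tested. The balance of directions depended on scaling. With library totals in place of TMM factors the median of all genes moved to -0.365, 22 members were called higher and 28 lower, and higher calls made up 28.6% of all calls over the table, against 49.7% with TMM. On log2(TPM + 1) values the median of all genes was -0.514, with 18 of 57 members called higher and 29 lower. Of all 12886 genes there, 1992 were called higher and 8519 lower, so higher calls made up 19.0% of all calls. Calls of single members under these scalings are to be read beside these medians of all genes. Under TMM, library totals, FPKM and TPM alike, 16 members were called higher and 14 lower. The same counts over all genes are not given here, so these have no background beside them. In contrast, 11 members changed sign under at least 1 of these scalings. Each of those that is named is marked as such where it appears.

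Among the laminin chains, the alpha chain gene LAMA1 fell 23.5-fold in CBS KO, and the beta chain gene LAMB3 of the anchoring laminin rose 1.97-fold. The other tested alpha chains, LAMA3 and LAMA5, did not pass the test.

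LAMA1 (chr18:6941742-7117797) encodes the alpha-1 chain, which is typical of embryonic epithelial basement membranes. It had 42.0, 38.2 and 37.5 CPM in CBS KO, against 985, 929 and 853 CPM in WT (log2 fold change -4.56, SE 0.080, edgeR adjusted p = 6.65e-17). No CBS KO library came near the WT range. Ranked by TPM, which corrects for transcript length, LAMA1 was the 34th most abundant of the 92 members in CBS KO and the 5th in WT. LAMA5 encodes the alpha-5 chain, the widespread alpha chain of mature epithelial laminins, and had 1325, 1303 and 1243 CPM in CBS KO, against 1338, 1268 and 1280 CPM in WT (log2 fold change -0.006, SE 0.064, edgeR adjusted p = 0.939). Its groups overlapped under TMM, whereas with library totals its log2 fold change was -0.358 (edgeR adjusted p = 6.22e-05), close to the shift of all genes under that scaling. LAMA3, the alpha chain of the anchoring laminin, had 57.7, 60.6 and 53.7 CPM in CBS KO, against 57.4, 52.1 and 50.4 CPM in WT (log2 fold change 0.11, SE 0.074, edgeR adjusted p = 0.194), with overlapping groups and a sign that turned to -0.246 (edgeR adjusted p = 0.00961) with library totals. LAMA4, an alpha chain of vascular and muscle laminins named here after its values were seen, had 6, 8 and 3 counts in CBS KO, against 0, 0 and 0 counts in WT. Set against 3 counts over the WT group, this was 8.65-fold higher in CBS KO. That value takes the CBS KO counts as exact and allows for counting error in WT only.

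LAMB3 (chr1:209614870-209652425), the beta chain of the anchoring laminin, had 1163, 1124 and 1253 CPM in CBS KO, against 641, 589 and 565 CPM in WT (log2 fold change 0.98, SE 0.069, edgeR adjusted p = 1.52e-09). LAMB3 was the member with the highest TPM in each group, at 396 TPM in CBS KO and 301 TPM in WT. LAMC1, the gamma chain of most laminins, had 720.5, 688 and 661 CPM in CBS KO, against 559, 531 and 539 CPM in WT and was called higher with TMM (log2 fold change 0.35, SE 0.060, edgeR adjusted p = 6.51e-05). Its log2 fold change was -0.007 with library totals. On log2(TPM + 1) values LAMC1 was called lower (log2 fold change -0.24, limma adjusted p = 0.00848). LAMB2, a beta chain of neuromuscular and kidney basement membranes, had 216, 205 and 235 CPM in CBS KO, against 168, 153 and 154 CPM in WT and was called higher with TMM (log2 fold change 0.47, SE 0.063, edgeR adjusted p = 4.32e-06), but its log2 fold change was -0.12 on log2(TPM + 1) values. LAMB1, the common beta chain, had 585, 575 and 587 CPM in CBS KO, against 622, 611 and 596 CPM in WT (log2 fold change -0.067, SE 0.057, edgeR adjusted p = 0.296). Its CBS KO values lay just below those of WT without passing the test, and with library totals it was called lower (log2 fold change -0.42, edgeR adjusted p = 3.94e-06).

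The make-up of the laminin transcripts can be read within each library, where the scaling between libraries drops out. LAMA1 made up 3.40, 3.15 and 3.24% of the alpha chain TPM in the CBS KO libraries, against 45.4, 45.4 and 43.0% in the WT libraries. LAMA5 made up 90.2 ± 0.06% in CBS KO and 52.8 ± 1.39% in WT (SD, n = 3 in each), and LAMA3 made up 5.60 ± 0.41% in CBS KO and 2.63 ± 0.07% in WT. Alpha chain transcript was thus mostly LAMA5 in CBS KO, and LAMA5 and LAMA1 together in WT. LAMB3 supplied 68.2 ± 0.64% of beta chain TPM in CBS KO and 53.1 ± 0.95% in WT, and LAMB1 supplied 23.2 ± 0.85% in CBS KO and 37.3 ± 1.01% in WT. Summed over all alpha chain genes, the libraries held 173, 162 and 143 TPM in CBS KO, against 430, 405 and 394 TPM in WT. The beta chain sums were 612, 561 and 571 TPM in CBS KO and 597, 561 and 546 TPM in WT, and the groups overlapped on this scale. Unlike the shares, the alpha and beta chain sums depend on the scaling between libraries. All genes had a median log2 fold change of -0.514 on log2(TPM + 1) values. With 3 libraries against 3, an exact permutation test of such a ratio or sum cannot go below p = 0.1, so these values are given as a description.

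**Figure D1:**
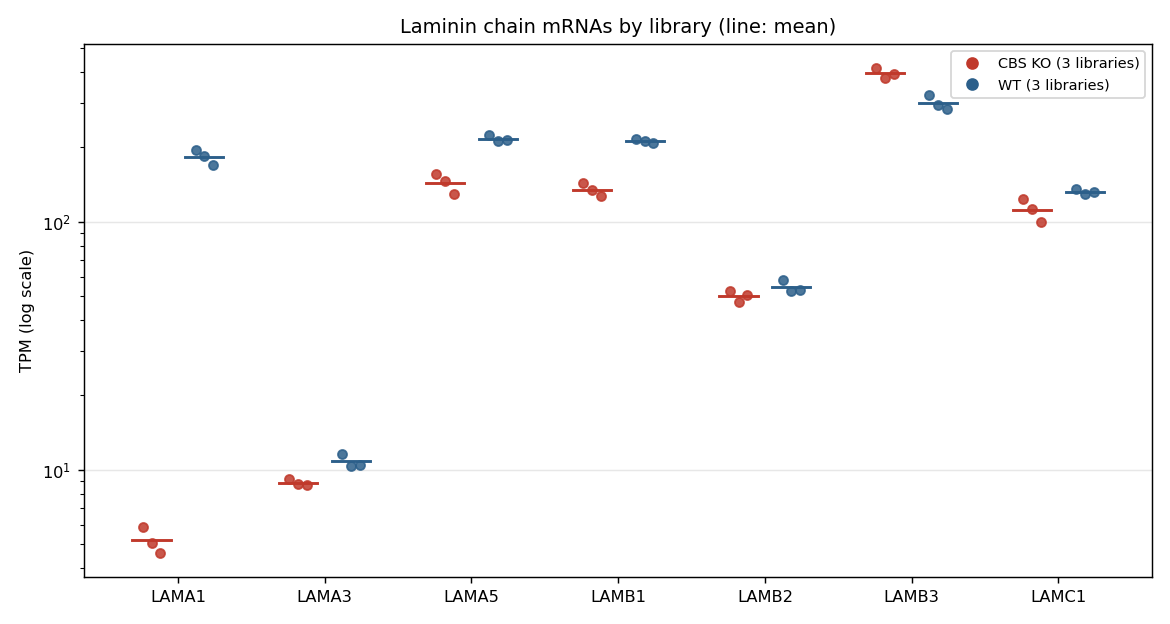
TPM of 7 tested laminin chain genes in each library on a log axis, with CBS KO left of WT for each gene, points for libraries and lines for means of 3. LAMA1 averaged 5.19 TPM in CBS KO and 183 TPM in WT, while LAMB3 averaged 396 TPM in CBS KO and 301 TPM in WT. All genes had a median of -0.514 on the log2(TPM + 1) scale. LAMA3, LAMA5 and LAMB1, which were not called by CPM, also lie lower in CBS KO here, as does LAMC1, which was called higher by CPM.

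Of the 4 type IV collagen genes tested, COL4A1, COL4A5 and COL4A6 fell in CBS KO and COL4A2 was not called. The other collagens of the epithelial membrane zone were divided. Of the 9 basement membrane collagen genes listed, 7 were tested, 2 were called higher (28.6%, against 38.4% of all genes) and 4 lower (57.1%, against 38.9%). The lower calls held under all 4 scalings, as did the rise of COL7A1.

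COL4A1 (chr13:110148963-110307157) encodes an alpha chain of the widespread type IV collagen, which is made of COL4A1 and COL4A2 chains. It had 0.902, 0.703 and 0.732 CPM in CBS KO, against 6.98, 7.46 and 7.32 CPM in WT, a 9.21-fold fall (log2 fold change -3.20, SE 0.20, edgeR adjusted p = 2.25e-10). Its neighbour COL4A2 (chr13:110307284-110513209) had 5.25, 3.87 and 6.18 CPM in CBS KO, against 5.93, 6.86 and 5.63 CPM in WT (log2 fold change -0.26, SE 0.16, edgeR adjusted p = 0.15). COL4A2 overlapped between the groups, passed the test with library totals (log2 fold change -0.62, edgeR adjusted p = 0.00241) and passed it with TMM when CBS KO replicate 3 was left out (log2 fold change -0.435, edgeR adjusted p = 0.0214). The ratio of COL4A1 to COL4A2 TPM, which does not depend on the scaling, was 0.170, 0.179 and 0.121 in CBS KO, against 1.12, 1.06 and 1.28 in WT. The pair that shares the GC-rich start region printed above therefore stood near equal levels in WT and apart in CBS KO. Both were low: COL4A1 averaged under 1 CPM in CBS KO.

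COL4A5 (chrX:108439838-108697545), an alpha chain of the type IV collagen of kidney and some epithelial membranes, had 23.7, 19.5 and 19.6 CPM in CBS KO, against 67.8, 66.2 and 65.5 CPM in WT (log2 fold change -1.67, SE 0.081, edgeR adjusted p = 1.42e-11). It was the most abundant type IV collagen gene by TPM in each group, at 4.39 TPM in CBS KO and 20.3 TPM in WT. COL4A6 (chrX:108155614-108439458), whose chain joins that of COL4A5 in smooth muscle and epithelial membranes, had 1.72, 2.99 and 1.95 CPM in CBS KO, against 13.2, 13.3 and 12.1 CPM in WT (log2 fold change -2.54, SE 0.16, edgeR adjusted p = 3.73e-10). Both genes of this X-linked pair thus fell, and all CBS KO libraries lay below all WT libraries. The ratio of COL4A5 to COL4A6 TPM was 14.1, 7.15 and 10.1 in CBS KO, against 5.46, 5.03 and 5.42 in WT. COL4A4 held 2 counts over the CBS KO libraries and 3 over the WT libraries and was not tested.

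COL7A1, which forms the anchoring fibrils that tie an epithelial membrane to the tissue below, had 15.6, 13.5 and 14.5 CPM in CBS KO, against 5.82, 6.20 and 6.06 CPM in WT (log2 fold change 1.27, SE 0.11, edgeR adjusted p = 1.44e-08). COL18A1, a basement membrane proteoglycan and the source of endostatin, had 203, 191 and 192 CPM in CBS KO, against 229.6, 238 and 220.5 CPM in WT (log2 fold change -0.23, SE 0.056, edgeR adjusted p = 0.00133). COL17A1, a transmembrane collagen of hemidesmosomes, had 14.8, 14.9 and 17.7 CPM in CBS KO, against 13.5, 13.1 and 10.9 CPM in WT and was called higher with TMM (log2 fold change 0.34, SE 0.11, edgeR adjusted p = 0.00915), but its log2 fold change was -0.012 with library totals and -0.20 on log2(TPM + 1) values. Without WT replicate 3 its call was lost (log2 fold change 0.25, edgeR adjusted p = 0.0587).

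Transcript of the laminin receptor dystroglycan fell. Of the linkers between the laminin and collagen networks, agrin was called higher with TMM, and perlecan and nidogen-1 did not pass the test. DAG1 (chr3:49468948-49535615) encodes dystroglycan, the cell surface receptor that binds laminin through sugars on its alpha subunit. It had 90.9, 88.6 and 83.6 CPM in CBS KO, against 204, 199 and 202 CPM in WT (log2 fold change -1.20, SE 0.057, edgeR adjusted p = 1.14e-11). The groups were far apart under each scaling, and the DAG1 to AGRN TPM ratio was 0.150, 0.156 and 0.142 in CBS KO, against 0.470, 0.465 and 0.504 in WT. AGRN encodes agrin, a heparan sulfate proteoglycan that bridges laminin and dystroglycan. It had 830.3, 777 and 811 CPM in CBS KO, against 594, 584 and 549.8 CPM in WT and was called higher with TMM (log2 fold change 0.48, SE 0.062, edgeR adjusted p = 1.95e-06), but its log2 fold change was -0.10 on log2(TPM + 1) values. HSPG2 encodes perlecan, the main heparan sulfate proteoglycan of basement membranes, and had 480.2, 460.1 and 411 CPM in CBS KO, against 514, 489 and 466 CPM in WT (log2 fold change -0.12, SE 0.067, edgeR adjusted p = 0.109). Without CBS KO replicate 1 it was called lower (log2 fold change -0.182, edgeR adjusted p = 0.0133), as it was with library totals (log2 fold change -0.47, edgeR adjusted p = 2.37e-05). NID1, nidogen-1, the short bridge between laminin and type IV collagen, had 113, 100.1 and 98.5 CPM in CBS KO, against 98.8, 105 and 102 CPM in WT (log2 fold change 0.028, SE 0.066, edgeR adjusted p = 0.709), with overlapping groups. Its log2 fold change turned to -0.33 (edgeR adjusted p = 0.000878) with library totals, where all genes had a median of -0.365. NID2 had 4, 4 and 4 counts in CBS KO, against 5, 4 and 0 counts in WT and was not tested.

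**Figure D2:**
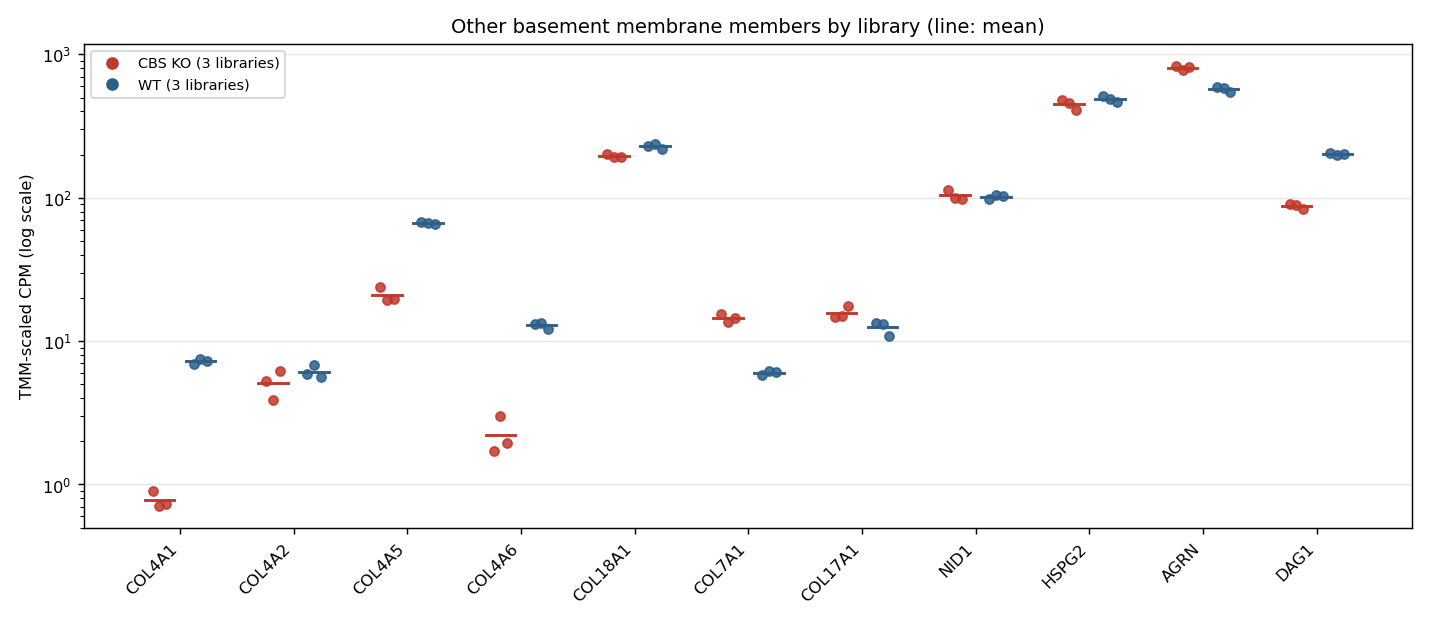
TMM-scaled CPM of 11 basement membrane members in each library on a log axis, CBS KO left of WT, with points for libraries and lines for means of 3. COL4A1, COL4A5, COL4A6 and DAG1 are lower in every CBS KO library than in any WT library, COL7A1 is higher, and COL4A2, NID1 and HSPG2 overlap.

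Of 18 genes that build the laminin-binding sugar of dystroglycan, all tested, 4 were called higher (22.2%, against 38.4% of all genes) and 8 lower (44.4%, against 38.9%), so the lower share was near the background, with a median log2 fold change of -0.205 against -0.011 over all genes. With library totals 2 were called higher and 12 lower, against 2966 and 7403 of all 13028 genes. On log2(TPM + 1) values 1 was called higher and 14 lower, against 1992 and 8519 of all 12886 genes. DOLK, a kinase that makes the dolichol phosphate needed for O-mannosylation, had 4.51, 4.83 and 6.50 CPM in CBS KO, against 34.9, 32.6 and 34.9 CPM in WT (log2 fold change -2.69, SE 0.11, edgeR adjusted p = 2.62e-12). B4GAT1, which primes the matriglycan chain, had 10.1, 11.5 and 11.9 CPM in CBS KO and 28.8, 26.1 and 25.4 CPM in WT (log2 fold change -1.26, SE 0.10, edgeR adjusted p = 3.28e-09). GMPPB, which makes GDP-mannose, had 9.59, 9.32 and 8.94 CPM in CBS KO and 19.6, 18.8 and 19.7 CPM in WT (log2 fold change -1.06, SE 0.093, edgeR adjusted p = 2.28e-08). DPM3, a subunit of dolichol phosphate mannose synthase, rose, with 6.80, 9.40 and 10.9 CPM in CBS KO and 4.50, 3.95 and 3.82 CPM in WT (log2 fold change 1.14, SE 0.16, edgeR adjusted p = 7.83e-06). The groups did not overlap in any of these 4 genes, which were named for the largest called changes of the list, so this adds nothing to the calls. DOLK, GMPPB and DPM3 also serve the glycosylation of many other proteins.

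Of 22 tested genes for receptors of basement membrane and matrix, 16 were called higher with TMM (72.7%, against 38.4% of all genes) and 1 lower (4.55%, against 38.9%). The gene called lower was ITGA1, named after its values were seen. The median log2 fold change was 0.592, against -0.011 over all genes. With library totals 13 were called higher and 6 lower, against 2966 and 7403 of all 13028 genes. The median was then 0.238, against -0.365 over all genes. On log2(TPM + 1) values 8 of 20 were called higher and 5 lower, against 1992 and 8519 of all 12886 genes. ITGA5, the alpha subunit of the fibronectin receptor, had 226, 226 and 227 CPM in CBS KO, against 28.8, 24.7 and 28.4 CPM in WT (log2 fold change 3.05, SE 0.068, edgeR adjusted p = 1.04e-15). SDC2, a heparan sulfate proteoglycan of the cell surface, had 37.5, 40.1 and 38.9 CPM in CBS KO and 7.69, 7.57 and 5.57 CPM in WT (log2 fold change 2.48, SE 0.10, edgeR adjusted p = 2.55e-12). ITGB6 and ITGB8, beta subunits that pair with the alpha-v integrin and release TGF-beta from its latent complex, also rose. ITGB6 had 8.03, 6.94 and 7.64 CPM in CBS KO and 1.92, 1.37 and 1.64 CPM in WT (log2 fold change 2.19, SE 0.17, edgeR adjusted p = 4e-09). ITGB8 had 12.1, 10.6 and 10.1 CPM in CBS KO and 2.91, 2.74 and 2.62 CPM in WT (log2 fold change 1.98, SE 0.14, edgeR adjusted p = 1.04e-09). All 4 were higher in every CBS KO library than in any WT library, but they were named for the largest called changes, so this adds nothing to the calls. The laminin-binding subunits ITGA6, ITGA3 and ITGB4 and the common beta subunit ITGB1, named after their values were seen, were called higher with TMM, at log2 fold changes of 1.66, 0.63, 0.43 and 1.13, of which that of ITGA3 was 0.047 and not called, and that of ITGB4 -0.14, on log2(TPM + 1) values. BCAM, a receptor for the alpha-5 laminin chain, was not called at 184 CPM in CBS KO and 175 CPM in WT (log2 fold change 0.066). With library totals it was called lower (log2 fold change -0.288, edgeR adjusted p = 0.000292), where all genes had a median of -0.365.

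Of 22 tested genes for other components of basement membranes, outside the members, 12 were called higher (54.5%, against 38.4% of all genes) and 8 lower (36.4%, against 38.9%), with a median log2 fold change of 0.282 against -0.011 over all genes. The lower share was near the background. With library totals 7 were called higher and 11 lower, against 2966 and 7403 of all 13028 genes. On log2(TPM + 1) values 5 of 21 were called higher and 12 lower, against 1992 and 8519 of all 12886 genes. CCN1, a matricellular protein that binds integrins, had 311, 304 and 319.6 CPM in CBS KO, against 16.4, 17.4 and 15.4 CPM in WT (log2 fold change 4.25, SE 0.068, edgeR adjusted p = 2.59e-17). TINAGL1, a tubulointerstitial nephritis antigen-like protein of basement membranes, had 186, 192 and 195 CPM in CBS KO and 56.3, 54.7 and 52.7 CPM in WT (log2 fold change 1.81, SE 0.059, edgeR adjusted p = 1.29e-13). NPNT, nephronectin, an integrin ligand of basement membranes, had 264, 249 and 252 CPM in CBS KO and 79.4, 77.5 and 73.8 CPM in WT (log2 fold change 1.73, SE 0.058, edgeR adjusted p = 1.5e-13). Each of the 3 was higher in every CBS KO library, but they too were named for the largest called changes. PAPLN, papilin, fell, with 3.52, 4.39 and 3.25 CPM in CBS KO and 20.6, 20.1 and 18.3 CPM in WT (log2 fold change -2.40, SE 0.13, edgeR adjusted p = 3.37e-11).

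Of 31 collagen genes outside the basement membrane group, 16 were tested, 7 were called higher (43.8%, against 38.4% of all genes) and 5 lower (31.2%, against 38.9%), shares near the background. COL9A2 and COL6A2 had the largest rises, and COL12A1 and COL5A2 the largest falls, among those that reached 5 CPM. COL1A1 was well detected with next to no counts of COL1A2, and COL6A1 and COL6A2 with next to none of COL6A3.

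COL9A2, a chain of the fibril-associated type IX collagen of cartilage, had 5.90, 5.80 and 6.10 CPM in CBS KO, against 1.87, 1.92 and 1.26 CPM in WT (log2 fold change 1.82, SE 0.18, edgeR adjusted p = 1.07e-07). COL6A2 and COL6A1 encode partner chains of type VI collagen, which forms beaded filaments near basement membranes, and lie 93063 bases apart on chromosome 21. COL6A2 had 34.9, 37.4 and 37.2 CPM in CBS KO, against 20.5, 19.4 and 18.1 CPM in WT (log2 fold change 0.91, SE 0.078, edgeR adjusted p = 1.46e-08). COL6A1 had 250.2, 256 and 255 CPM in CBS KO, against 183, 173 and 162 CPM in WT and was called higher with TMM (log2 fold change 0.55, SE 0.058, edgeR adjusted p = 1.87e-07), with a log2 fold change of -0.03 on log2(TPM + 1) values. The third chain of the usual type VI trimer, COL6A3, was not tested, with 1, 2 and 0 counts in CBS KO, against 0, 2 and 0 counts in WT. COL5A1, a type V chain that sets fibril diameter, had 12.7, 12.5 and 9.43 CPM in CBS KO, against 8.51, 8.39 and 7.43 CPM in WT and was called higher with TMM (log2 fold change 0.51, SE 0.13, edgeR adjusted p = 0.0016), with a log2 fold change of -0.05 on log2(TPM + 1) values and an adjusted p of 0.296 from edgeR with library totals. COL5A2, its partner chain, fell, with 234, 219 and 212 CPM in CBS KO, against 298, 313 and 311 CPM in WT (log2 fold change -0.47, SE 0.057, edgeR adjusted p = 1.25e-06). COL12A1, a fibril-associated collagen, had 118, 116 and 115 CPM in CBS KO, against 194, 154 and 173 CPM in WT (log2 fold change -0.58, SE 0.073, edgeR adjusted p = 1.69e-06).

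The remaining calls in this group were of less abundant or less changed genes, named after their values were seen. COL5A3 and COL16A1 rose with log2 fold changes of 3.54 and 2.43. COL5A3 averaged 4.75 CPM in CBS KO and 0.402 CPM in WT, and COL16A1 averaged 4.86 CPM in CBS KO and 0.895 CPM in WT. COL9A3 rose by 1.24 on the log2 scale. COL3A1, COL11A2 and COL27A1 were called lower, with log2 fold changes of -1.81, -0.43 and -0.20. COL1A1, the main chain of type I collagen, was not called, with 189, 173 and 183 CPM in CBS KO, against 208, 204 and 181 CPM in WT (log2 fold change -0.12, SE 0.063, edgeR adjusted p = 0.0897). COL1A1 was called lower under the other 3 scalings, with a log2 fold change of -0.475 with library totals (edgeR adjusted p = 9.7e-06), -0.461 on log2(FPKM + 1) values (limma adjusted p = 6.34e-05) and -0.693 on log2(TPM + 1) values (limma adjusted p = 4.83e-06). Its usual partner in type I collagen, COL1A2, had 0, 0 and 0 counts in CBS KO, against 0, 1 and 0 counts in WT. COL8A2, a chain of endothelial and corneal matrix, had 0, 0 and 1 counts in CBS KO, against 3, 8 and 9 counts in WT, a scaled ratio of 0.0763 (95% exact interval 0.00184 to 0.477, counting error only).

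Of 8 collagen-modifying enzymes, all tested, 5 were called higher (62.5%, against 38.4% of all genes) and 1 lower (12.5%, against 38.9%). The share called in either direction, 75.0%, was near the 77.2% of all genes. LOX rose 8.55-fold and PLOD2 rose 3.55-fold, and both calls held under all 4 scalings. LOX had the largest rise among all members that reached 5 CPM.

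LOX (chr5:122063195-122078259), the secreted oxidase that starts collagen and elastin crosslinks, had 147, 144 and 129 CPM in CBS KO, against 16.6, 17.8 and 14.8 CPM in WT (log2 fold change 3.10, SE 0.083, edgeR adjusted p = 9.87e-15). The lowest CBS KO value was many times the highest WT value. PLOD2 (chr3:146069440-146161184), which hydroxylates lysines of the collagen telopeptides and so sets the type of crosslink, had 848, 834 and 748 CPM in CBS KO, against 241, 229 and 216 CPM in WT (log2 fold change 1.83, SE 0.069, edgeR adjusted p = 6.19e-13). PLOD2 was the second most abundant member by TPM in CBS KO and the 10th in WT. PLOD1, which hydroxylates lysines of the triple helix, had 246, 273 and 283 CPM in CBS KO, against 187, 183 and 173 CPM in WT and was called higher with TMM (log2 fold change 0.56, SE 0.062, edgeR adjusted p = 3.58e-07), with a log2 fold change of -0.03 on log2(TPM + 1) values. PLOD3, which hydroxylates and glycosylates collagen lysines, had 79.4, 78.6 and 83.0 CPM in CBS KO, against 48.3, 50.7 and 50.0 CPM in WT (log2 fold change 0.69, SE 0.064, edgeR adjusted p = 3.81e-08), and lost its call on log2(TPM + 1) values (limma adjusted p = 0.185). The ratio of PLOD2 to PLOD1 TPM was 2.70, 2.40 and 2.08 in CBS KO, against 1.01, 0.982 and 0.975 in WT. Telopeptide hydroxylase transcript therefore stood above helix hydroxylase transcript in each CBS KO library, and about level with it in WT. LOXL3, a lysyl oxidase-like enzyme, fell, with 2.62, 3.16 and 2.52 CPM in CBS KO, against 8.07, 6.80 and 7.21 CPM in WT (log2 fold change -1.41, SE 0.16, edgeR adjusted p = 3.36e-07). LOXL2, named after its values were seen, rose at a low level (2.90 CPM in CBS KO and 1.15 CPM in WT, log2 fold change 1.33), and LOXL1 and LOXL4 were not called (log2 fold changes -0.053 and -0.10), but were called lower with library totals (log2 fold changes -0.407 and -0.458).

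Of 21 tested genes for enzymes and chaperones that fold and process collagen, 16 were called higher with TMM (76.2%, against 38.4% of all genes) and 3 lower (14.3%, against 38.9%), with a median log2 fold change of 0.462 against -0.011 over all genes. With library totals 10 were called higher and 6 lower, against 2966 and 7403 of all 13028 genes. On log2(TPM + 1) values 7 of 20 were called higher and 10 lower, against 1992 and 8519 of all 12886 genes. P4HA1 and P4HA2, the catalytic subunits of prolyl 4-hydroxylase, which stabilises the collagen helix, led them among genes that reach 5 CPM. P4HA1 had 577, 585 and 592 CPM in CBS KO, against 176, 168 and 154 CPM in WT (log2 fold change 1.82, SE 0.062, edgeR adjusted p = 2.17e-13). P4HA2 had 245, 284 and 286 CPM in CBS KO, against 134, 119 and 116 CPM in WT (log2 fold change 1.15, SE 0.072, edgeR adjusted p = 3.52e-10). FKBP14, a prolyl isomerase of the endoplasmic reticulum, had 27.5, 25.5 and 22.0 CPM in CBS KO and 13.1, 11.8 and 12.5 CPM in WT (log2 fold change 0.999, SE 0.097, edgeR adjusted p = 7.41e-08). TMEM38B, an ion channel of that compartment needed for collagen modification, had 67.9, 67.2 and 67.6 CPM in CBS KO and 35.6, 33.3 and 38.5 CPM in WT (log2 fold change 0.92, SE 0.070, edgeR adjusted p = 4.29e-09).

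Among the matrix proteases, 19 MMP genes were listed but only 5 had enough counts to be tested. MMP1, MMP14 and MMP15 rose and MMP11 fell, so that 80.0% of the 5 were called, against 77.2% of all genes. All 3 tested TIMP genes rose with TMM, against 38.4% of all genes.

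MMP14, the membrane-anchored collagenase that activates proMMP2 together with TIMP2, had 204, 205 and 221 CPM in CBS KO, against 109.9, 103 and 99.0 CPM in WT (log2 fold change 1.01, SE 0.061, edgeR adjusted p = 1.86e-10). MMP1, interstitial collagenase, had 19.6, 19.8 and 21.0 CPM in CBS KO, against 8.18, 9.77 and 8.74 CPM in WT (log2 fold change 1.18, SE 0.10, edgeR adjusted p = 1.16e-08). MMP15, another membrane-anchored MMP, had 85.2, 72.2 and 84.4 CPM in CBS KO, against 49.2, 48.0 and 46.4 CPM in WT (log2 fold change 0.75, SE 0.074, edgeR adjusted p = 8.13e-08), and lost its call on log2(TPM + 1) values (limma adjusted p = 0.122). MMP11, stromelysin-3, which in tumours is mostly made by fibroblasts, had 9.84, 11.4 and 12.7 CPM in CBS KO, against 43.8, 43.9 and 39.4 CPM in WT (log2 fold change -1.90, SE 0.10, edgeR adjusted p = 2.11e-11). In each of these 4 genes the groups did not overlap, but they were named because they were called, so this adds nothing to the calls. MMP24 was not called (log2 fold change -0.17), but was called lower with library totals (log2 fold change -0.519, edgeR adjusted p = 0.00719).

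The proteases under the filter held few counts, and are named after these were seen. MMP13, a collagenase, had 13, 7 and 12 counts in CBS KO, against 1, 1 and 0 counts in WT, a ratio of 24.4 (95% exact interval 6.23 to 210). MMP7, matrilysin, an epithelial MMP, had 7, 6 and 8 counts in CBS KO, against 1, 1 and 0 counts in WT, a ratio of 16.0 (95% exact interval 3.92 to 141). MMP19, MMP28 and MMP10 held 20, 13 and 11 counts over the CBS KO libraries and 1, 1 and 3 counts over the WT libraries. MMP16 went the other way, with 0, 1 and 0 counts in CBS KO, against 5, 7 and 7 counts in WT, a ratio of 0.0803 (95% exact interval 0.00193 to 0.505). These ratios are of counts over the 3 libraries after scaling, and their intervals cover counting error only. The gelatinases MMP2 and MMP9, which degrade type IV collagen, held 0 and 3 counts over the CBS KO libraries and 1 and 0 over the WT libraries, too few to compare. Taking 3 counts as the limit, a gene without a count could still be present at up to 0.244 to 0.264 CPM in a CBS KO library and 0.164 to 0.165 CPM in a WT library.

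TIMP3, the inhibitor that binds to the matrix, had 239.5, 235 and 249 CPM in CBS KO, against 108, 96.7 and 95.5 CPM in WT (log2 fold change 1.27, SE 0.062, edgeR adjusted p = 1.48e-11). TIMP1, a soluble inhibitor, had 45.8, 53.9 and 53.7 CPM in CBS KO, against 30.9, 32.8 and 29.7 CPM in WT (log2 fold change 0.72, SE 0.079, edgeR adjusted p = 3.44e-07), and TIMP2, which also takes part in proMMP2 activation, had 175, 182 and 186 CPM in CBS KO, against 120.3, 111 and 109 CPM in WT (log2 fold change 0.68, SE 0.059, edgeR adjusted p = 2.18e-08). On log2(TPM + 1) values TIMP3 kept its call (log2 fold change 0.67), whereas TIMP1 (limma adjusted p = 0.0576) and TIMP2 (limma adjusted p = 0.226) did not. The MMP14 to TIMP2 TPM ratio was 1.15, 1.11 and 1.17 in CBS KO, against 0.900, 0.914 and 0.898 in WT. The groups did not overlap, and the CBS KO mean was 1.26 times the WT mean.

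A further list held other matrix proteases, their inhibitors and related genes that are neither, such as SULF2. Of its 21 tested genes, 14 were called higher (66.7%, against 38.4% of all genes) and 2 lower (9.52%, against 38.9%). The median log2 fold change was 0.444, against -0.011 over all genes. With library totals 9 were called higher and 5 lower, against 2966 and 7403 of all 13028 genes. On log2(TPM + 1) values 8 of 19 were called higher and 7 lower, against 1992 and 8519 of all 12886 genes. SULF2, which removes sulfate from heparan sulfate chains such as those of perlecan and agrin, had 33.9, 35.2 and 36.5 CPM in CBS KO and 5.71, 4.44 and 4.59 CPM in WT (log2 fold change 2.84, SE 0.10, edgeR adjusted p = 4.15e-13). CTSS, the elastinolytic cathepsin S, had 11.8, 11.6 and 10.4 CPM in CBS KO and 3.08, 3.84 and 1.97 CPM in WT (log2 fold change 1.93, SE 0.17, edgeR adjusted p = 2.9e-08). ADAMTS15, a proteoglycanase, fell, with 2.54, 1.14 and 2.28 CPM in CBS KO and 14.9, 13.1 and 11.7 CPM in WT (log2 fold change -2.72, SE 0.19, edgeR adjusted p = 1.37e-09).

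Of the interstitial and matricellular members, fibronectin fell slightly while SPARC and biglycan rose. FN1, fibronectin, the ligand of the ITGA5 integrin, had 741, 679.8 and 675 CPM in CBS KO, against 962, 884 and 887 CPM in WT (log2 fold change -0.38, SE 0.065, edgeR adjusted p = 5.11e-05). SPARC, a collagen-binding protein that also chaperones type IV collagen, had 6.72, 5.98 and 7.24 CPM in CBS KO, against 1.65, 1.81 and 1.97 CPM in WT (log2 fold change 1.88, SE 0.17, edgeR adjusted p = 2.32e-08). BGN, biglycan, a small leucine-rich proteoglycan, had 64.8, 65.1 and 73.9 CPM in CBS KO, against 31.4, 29.4 and 29.8 CPM in WT (log2 fold change 1.17, SE 0.074, edgeR adjusted p = 3.54e-10). TGFBI, an integrin-binding matrix protein, was not called, with 212, 209.9 and 234 CPM in CBS KO, against 216, 209 and 193 CPM in WT (log2 fold change 0.087, SE 0.062, edgeR adjusted p = 0.208), with overlapping groups. With library totals it was called lower (log2 fold change -0.27, edgeR adjusted p = 0.000806), where all genes had a median of -0.365.

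**Figure D3:**
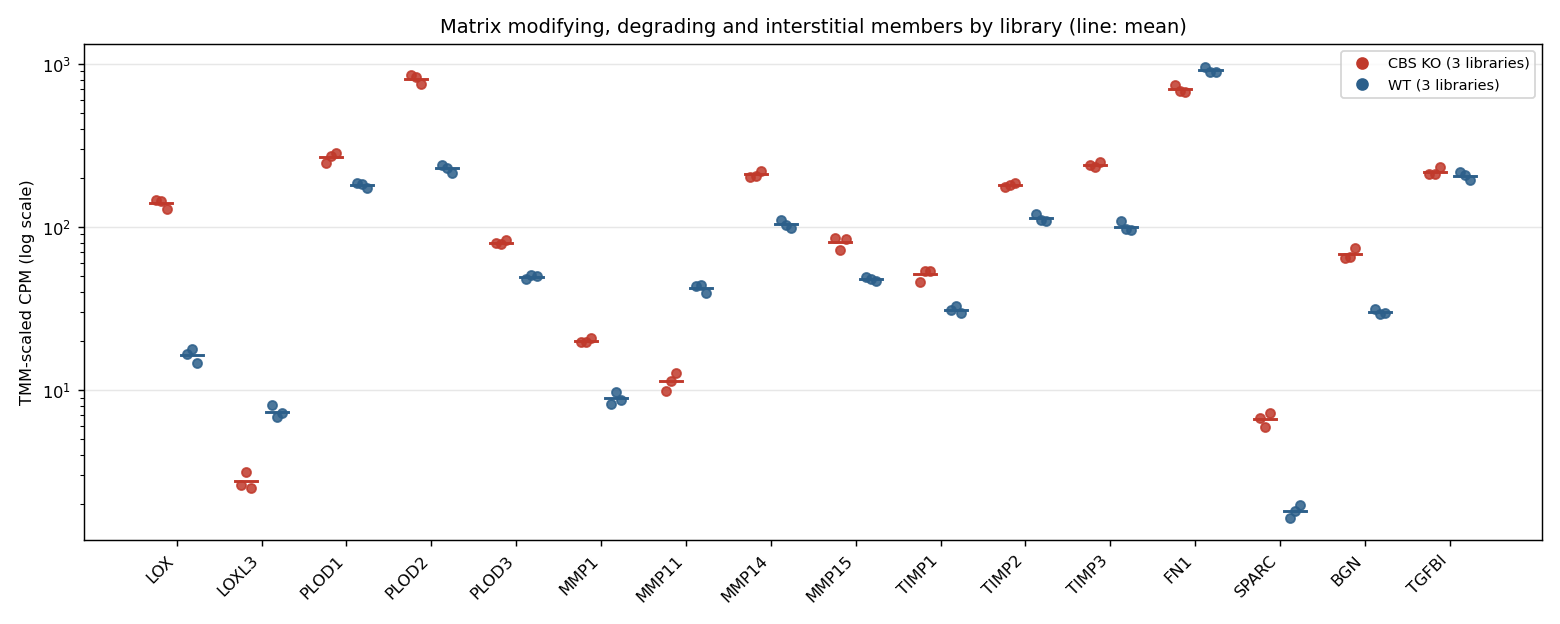
TMM-scaled CPM of collagen-modifying enzymes, MMPs, TIMPs, fibronectin, SPARC, BGN and TGFBI in each library on a log axis, CBS KO left of WT, with points for libraries and lines for means of 3. LOX, PLOD2, SPARC and TIMP3 lie clear above WT in every CBS KO library, LOXL3, MMP11 and FN1 lie below, and TGFBI overlaps.

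The tested laminin chains had a median of 0.226 on the log2 scale, and the basement membrane collagens ranged from -3.20 to 1.27 with a median of -0.261. Collagen-modifying enzymes had a median of 0.627, MMPs 0.753 and TIMPs 0.716, and other collagens -0.047. With library totals these medians were -0.127, -0.616, 0.273, 0.399, 0.361 and -0.401 in the same order, against -0.365 over all genes. By TPM among the 92 members, LOX ranked 23rd in CBS KO and 36th in WT. DAG1 ranked 27th in CBS KO and 15th in WT, and MMP11 ranked 33rd in CBS KO and 22nd in WT. Longer genes among the members tended to have lower fold changes: the Spearman correlation of log2 fold change with genomic span was -0.41 over 55 members and -0.01 over 13006 genes, a description across genes that share the same 6 libraries.

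**Figure D4:**
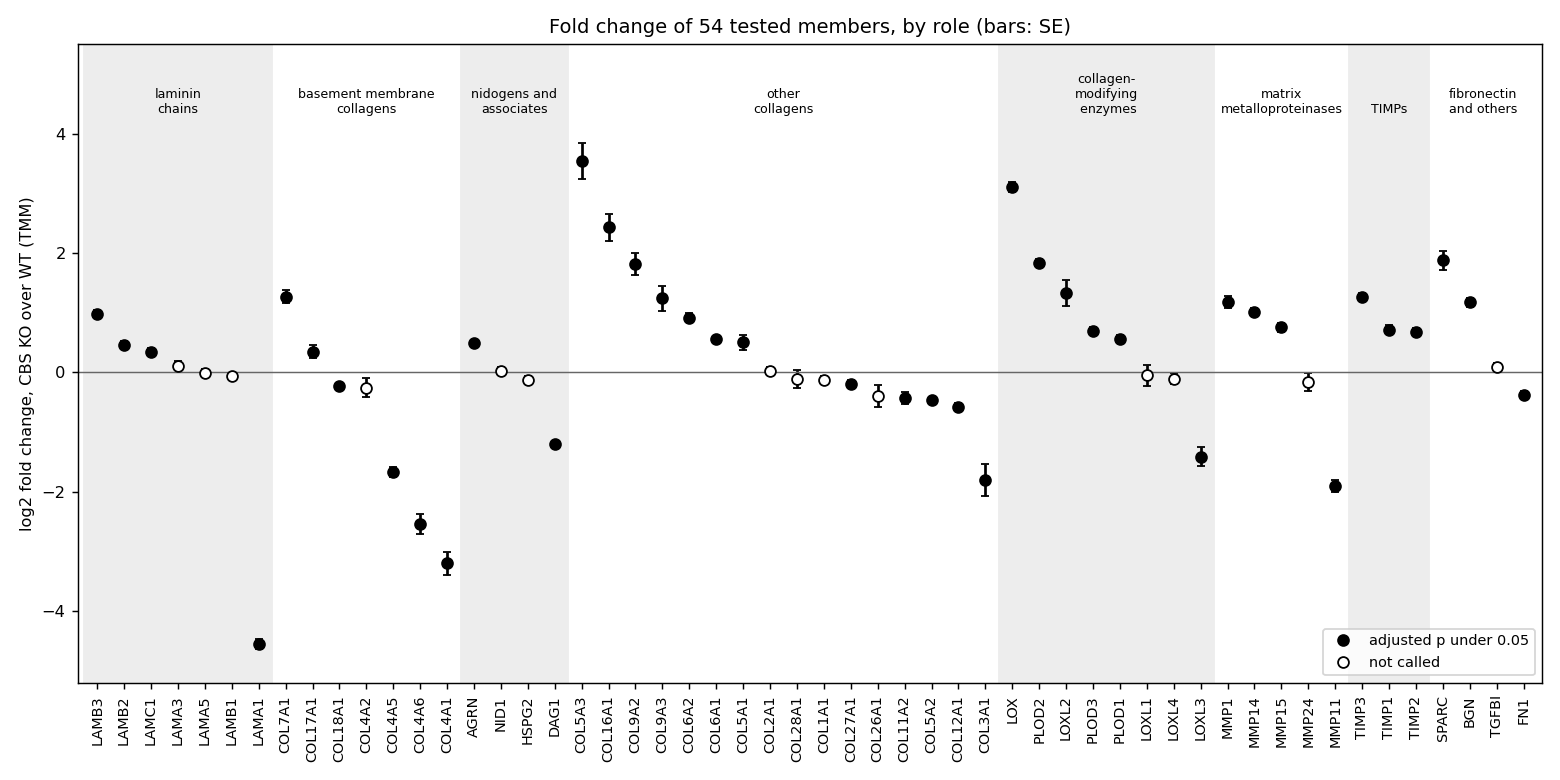
Log2 fold change of CBS KO over WT for 54 of the tested members by role, with bars for the SE, filled points for adjusted p under 0.05 and open points for members not called. LAMA1 at -4.56 and COL5A3 at 3.54 are the extremes, and each role except the TIMPs holds members on both sides of 0.

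**Figure D5:**
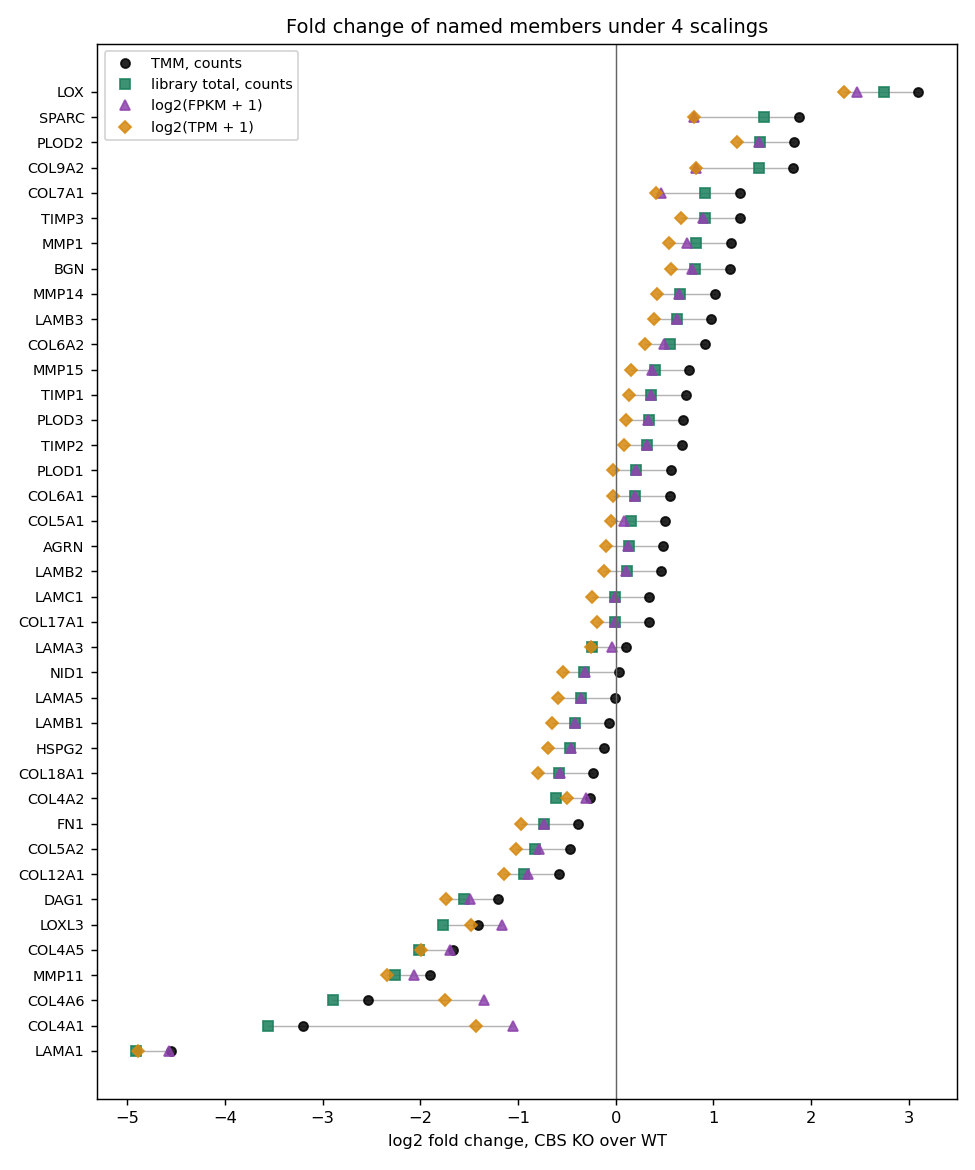
Log2 fold change of CBS KO over WT for the 39 named members under TMM, library totals, log2(FPKM + 1) and log2(TPM + 1). The other 3 scalings mostly shift members to the left of TMM, so members between 0 and 0.6 under TMM cross 0 under at least 1 of them, while LAMA1, COL4A5, MMP11 and DAG1 stay below 0 and LOX and PLOD2 stay above it.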

How the data were processed

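Libraries were made from poly(A) RNA with a dUTP strand mark and sequenced as paired reads, per the labels' protocols. The tools named, per the submitters' processing notes, are StringTie 2.1.6, HISAT2 2.2.1 and cutadapt 1.9, with edgeR and DESeq2, and the build is GRCh38; their roles are not stated. The authors deposited estimated counts per gene, which are not normalised, and FPKM and TPM values, which are divided by transcript length and library total, per the file headers. How reads were assigned to genes, and whether strand was used, is not given in the sources used here, so reads of overlapping or antisense genes may not be separated.

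Estimated counts were rounded, filtered with filterByExpr and tested with edgeR 4.0.16 (quasi-likelihood, robust, TMM factors, no covariate, 3 CBS KO against 3 WT libraries), with R 4.3.3. P-values were adjusted by Benjamini-Hochberg over all genes tested, and called under 0.05. TPM was used to compare genes with each other. SEs come from the estimate and its F statistic. Alternatives were library totals, median-ratio factors, no filter, a mean of at least 5 CPM, DESeq2 1.42.0, a replicate block, limma 3.58.1 on log2(FPKM + 1), log2(TPM + 1) and log2(FPKM + 0.1) with genes at 0.5 or more in 3 libraries, and leaving out each library. The scripts were tested on simulated data. Low counts were compared with exact binomial intervals (95%), with 3 counts as the floor of a 0.

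Values in every library are given for laminin chains, type IV, VII, XVII and XVIII collagens, NID1, HSPG2, AGRN, DAG1, FN1, LOX, PLODs and TIMPs that passed the filter, and in the other roles for up to 6 called members with the largest change that reach 5 CPM. From each gene list outside the members, up to 4 genes are named in the same way. Members, lists and motifs were chosen with earlier results of these data known, so no list is tested as a set. Some results within these gene groups are not reported here.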

Additional observations from a re-analysis of the deposited data

How the results depend on the processing

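Of the 39 named members, 36 had a value under all 15 alternatives, and 19 of these kept their direction and their side of the threshold in each. COL4A1, COL9A2 and SPARC had none with a minimum mean of 5 CPM, and kept both under the other 14. The counts with TMM were 27 members higher and 14 lower, and 4998 genes higher and 5062 lower. Members called lower numbered 28 with library totals, 26 with log2(FPKM + 1), 29 with log2(TPM + 1) and 26 with log2(FPKM + 0.1). Genes called higher numbered 2966, 2851, 1992 and 2843 under these 4 settings in the same order, and genes called lower numbered 8519 with log2(TPM + 1). The median log2 fold change of members, 0.107 with TMM, was -0.246, -0.027, -0.239 and -0.031 under the same settings. All genes had medians of -0.365, -0.308, -0.514 and -0.361 there, against -0.011 with TMM. The median of the members thus lay above that of all genes in each. With no filter, where all 92 members enter, the median was 0.491 for members and -0.011 for all genes. Leaving out each library gave medians of 0.098 to 0.259.

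Signs turned for members near 0. With library totals COL17A1 was at -0.012, LAMA3 at -0.246, LAMC1 at -0.007 and NID1 at -0.325. With log2(FPKM + 1) COL17A1 was at -0.010, LAMA3 at -0.043, LAMC1 at -0.009 and NID1 at -0.311, and with log2(FPKM + 0.1) at -0.013, -0.049, -0.009 and -0.326. With log2(TPM + 1) AGRN was at -0.101, COL17A1 at -0.195, LAMA3 at -0.256, LAMB2 at -0.117, LAMC1 at -0.239, NID1 at -0.541, PLOD1 at -0.026, COL6A1 at -0.032 and COL5A1 at -0.047. LAMA5, at -0.006 with TMM, was at 0.009 with median-ratio factors and with DESeq2, and ranged from -0.037 to 0.013 with each library left out. NID1 was at -0.010 with no filter, and ranged from -0.050 to 0.054 with each library left out. The cause of these changes was not tested.

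Deviations from the group means correlated weakly between libraries with the same replicate number (0.067, 0.007 and 0.039), and at -0.060 to 0.018 between the other pairs. With means of only 3 libraries, these values cannot decide whether the numbers pair the libraries. With the replicate number as a block, 27 members were called higher and 14 lower, 4986 genes higher and 5058 lower, and no named member changed its call. Members with 3 or fewer counts in each group, 18 of 92, cannot be compared at this depth.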
